A study of Mus musculus with 25 samples.

Results

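The genes described here encode the parts of the sarcomere that hold its filaments in register. They are the Z-disc genes Actn2, Actn3 and Ldb3, the M-band genes Myom1 and Myom2, the giant proteins Ttn and Neb, and the thick-filament C-proteins Mybpc1 and Mybpc2. The 9 genes were named as a group and were located by the curated RefSeq transcripts of mm10, out of 26180 genes with such a transcript. For each gene, the peaks of Spin1 and of H3K4me3 were taken at the promoter (TSS±1 kb of every curated transcript), in the gene body and within 50 kb on either side.

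Spin1 (spindlin 1) is a protein that recognizes a histone mark, H3K4me3, the trimethylated form of lysine 4 on histone H3. This mark is found at the promoters of active and poised genes. Both were mapped by ChIP-seq in primary myoblasts, the proliferating precursors that fuse into muscle fibers. The cells came from the limb muscles of 10-day-old C57BL/6 mice (C57BL/6 N in the study's methods), with no genetic change or treatment, were passed over dishes to which fibroblasts attach (preplating) and were harvested below confluency. There was 1 library for Spin1, made with an antibody described in earlier work, 1 for H3K4me3, made with a commercial antibody, and 1 input library as control. The title of the second sample names H3K4me3, whereas its antibody entry says only H3K4me. How many mice were pooled is not given in the sources used here, and the 22 RNA-seq samples of the series were not analysed here.

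In a striated muscle fiber, alpha-actinins crosslink the barbed ends of the actin filaments at the Z-disc, and Ldb3 (Cypher, ZASP) is a PDZ and LIM domain protein that binds them there. Titin, encoded by Ttn, spans from the Z-disc to the M-band, where myomesins crosslink the thick filaments, and nebulin, encoded by Neb, runs along the thin filament. C-proteins bind the myosin filament on either side of the M-band. Most of these genes are strongly transcribed only once myoblasts stop dividing and differentiate, whereas the cells used here were harvested below confluency. Whether some of the cells had begun to differentiate was not tested. A peak at a promoter is not a measure of expression.

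The authors listed 17106 Spin1 and 30763 H3K4me3 peaks, each with a MACS score, which is larger for a smaller p-value against the input. It grows with depth and with the width of the peak, so it ranks peaks within 1 list only. Of all Spin1 peaks, 30.9% had a score of 3100 or more, where the scores pile up, and 45.2% of the H3K4me3 peaks did. The number of reads behind a score is unknown, and without replicate libraries no difference between peaks could be tested. Of 8 myoblast marker genes, all 8 had both peaks at the promoter, among them Myod1, Pax7 and Des. Of 5 fibroblast markers 3 had both, including Pdgfra and Col1a1, whereas none of 4 endothelial, 4 macrophage, 3 neuronal and 3 hepatocyte markers had Spin1. H3K4me3 without Spin1 was present at 3 of the 4 endothelial markers, all 3 neuronal markers and 1 macrophage marker. The part of fibroblasts in the results below was not tested.

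The promoters printed below lie under the H3K4me3 peaks of their genes. RefSeq promoter entries (GRCm38.p6) were matched for 6 of the 9 genes, namely Ttn, Myom1, Mybpc1, Mybpc2, Actn2 and Ldb3. The entries of 5 are printed 5′ to 3′ from position -250 relative to the TSS up to the most upstream start annotated for the gene in that stretch, and capitals mark a motif. They were chosen because Ldb3, Ttn and Actn2 had both peaks, and Myom1 and Mybpc1 had H3K4me3 without Spin1. The Spin1 peak over the Actn2 TSS ends at chr13:12340846, inside the printed stretch, and so covers only a part of it.
Ldb3 promoter, chr14:34588705-34588931, minus strand: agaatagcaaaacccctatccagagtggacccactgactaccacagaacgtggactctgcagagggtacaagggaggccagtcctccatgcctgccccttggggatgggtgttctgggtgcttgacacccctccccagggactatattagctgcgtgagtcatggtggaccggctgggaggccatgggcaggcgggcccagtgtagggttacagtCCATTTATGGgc
Ttn promoter, chr2:76982558-76982797, minus strand: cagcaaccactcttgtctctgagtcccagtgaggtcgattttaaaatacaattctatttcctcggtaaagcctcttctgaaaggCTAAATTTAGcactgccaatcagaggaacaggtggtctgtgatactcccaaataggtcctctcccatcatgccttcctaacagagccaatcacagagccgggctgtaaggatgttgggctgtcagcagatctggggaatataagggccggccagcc
Actn2 promoter, chr13:12340761-12340982, minus strand: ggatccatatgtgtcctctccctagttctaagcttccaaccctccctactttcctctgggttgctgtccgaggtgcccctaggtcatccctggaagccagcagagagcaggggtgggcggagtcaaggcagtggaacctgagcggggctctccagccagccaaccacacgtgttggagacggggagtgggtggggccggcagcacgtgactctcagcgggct
Myom1 promoter, chr17:71019307-71019520, plus strand: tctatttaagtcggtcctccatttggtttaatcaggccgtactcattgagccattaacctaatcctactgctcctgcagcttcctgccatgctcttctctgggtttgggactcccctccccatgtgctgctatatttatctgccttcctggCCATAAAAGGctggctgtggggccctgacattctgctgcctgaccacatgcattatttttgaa
Mybpc1 promoter, chr10:88605230-88605402, minus strand: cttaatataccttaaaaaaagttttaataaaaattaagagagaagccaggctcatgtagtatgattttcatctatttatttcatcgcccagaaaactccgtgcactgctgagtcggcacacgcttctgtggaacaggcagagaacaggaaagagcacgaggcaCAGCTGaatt

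Motifs were searched on both strands in 300 bases from position -250, 50 of them after the TSS. Ttn held a MEF2 box, a site of the Mef2 factors, at -166 to -157. Myom1 held a CArG box, the site of serum response factor, at -99 to -90, and Ldb3 held one at -35 to -26 of its outer start. Mybpc1 held the E-box CAGCTG, the sequence preferred by myogenic bHLH factors, at -87 to -82. None of the 3 motifs was found in these windows of Actn2 and Mybpc2. Among all 32851 promoters of the RefSeq table, 16.3% held this E-box, 3.19% a MEF2 box and 1.63% a CArG box. A match is a description of the letters and not of a bound factor.

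At the promoter, 4 of the 9 genes had both Spin1 and H3K4me3, 4 had H3K4me3 without Spin1 and 1 had neither. Spin1 was present at Ttn, Actn2, Actn3 and Ldb3, that is, at all 3 Z-disc genes and at 1 giant gene. H3K4me3 alone was present at both M-band genes, Myom1 and Myom2, and at both C-protein genes, Mybpc1 and Mybpc2. The Neb promoter had neither peak. The class with H3K4me3 and no Spin1 held 4 of 9 genes, where 11.3% of all 26180 genes fell into it. Spin1 lay at 4 of 9 promoters beside 50.7% of all genes, and H3K4me3 at 8 of 9 beside 61.9%. Neither peak was found at 1 of 9, beside 38.0% of all genes. When the center of a peak had to lie in the window, H3K4me3 was counted at 4 of 9 beside 50.5% of all genes, Spin1 at 3 of 9 beside 46.5%, and both at 1 of 9 beside 39.7%. The count of H3K4me3 then lay below the share of all genes and no longer above it. Other choices raised the counts. With TSS±2 kb, Spin1 and both peaks were each counted at 5 of 9, beside 13469 and 13440 of all 26180 genes. When predicted RefSeq starts were added, or GENCODE starts were used, each was counted at 6 of 9, through Neb and Myom1. No share of all genes was computed for those starts. Among genes with H3K4me3 at the promoter, 4 of the 8 had Spin1, beside 81.7% of all such genes. That share covers promoters of any CpG content, which is treated below. The genes were chosen with results of these data known, and these shares are a description.

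**Figure D1:**
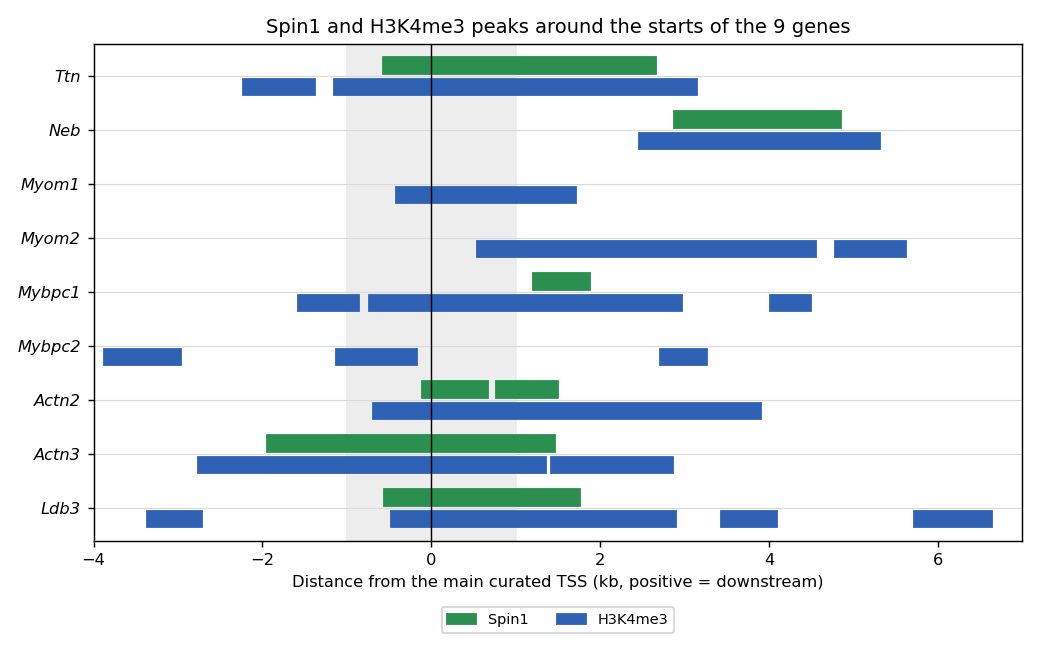
Spin1 (green) and H3K4me3 (blue) peaks around the main curated TSS of each gene (x axis, distance in kb in the direction of transcription). The grey band is TSS±1 kb. Ttn, Actn2, Actn3 and Ldb3 have both colours in the band, Myom1, Myom2, Mybpc1 and Mybpc2 blue only, and the peaks of Neb begin 2460 bp downstream.

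Over TSS±1 kb, all 9 promoters were poor in CpG. The observed to expected ratio of CpG over TSS±1 kb ranged from 0.15 at Myom2 and 0.17 at Ldb3 to 0.40 at Actn3 and 0.42 at Actn2, under the threshold of 0.5. The other 5 genes lay at 0.28 (Ttn, Mybpc2) and 0.32 (Neb, Myom1, Mybpc1). A CpG-rich promoter was present in 0 of the 9 genes, beside 44.5% of all genes. CpG content divided the peak lists, since 98.9% of the 11654 genes with a CpG-rich promoter had H3K4me3 and 89.4% had Spin1. Among the 14526 genes with a CpG-poor promoter, 4677 (32.2%) had H3K4me3 and 2848 (19.6%) had Spin1. The share of 81.7% given above mixes both CpG classes, and is therefore not matched to these 9 genes. Of the 9 genes, 8 had H3K4me3 and 4 had Spin1. Within the 9 genes, the order by CpG ratio followed the peaks only in part. The highest ratios, at Actn2 and Actn3, went with both peaks, and the lowest, at Myom2, with no Spin1. Ldb3, however, had both peaks at 0.17, while Mybpc2, at 0.28, had no Spin1. Neb, at 0.32, had no peak at its curated start. In the shorter window of 300 bases, the ratio exceeded the threshold at Mybpc1 (0.68), Actn2 (0.61) and Actn3 (0.53). The share of all genes above the threshold in that window was not computed.

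**Figure D2:**
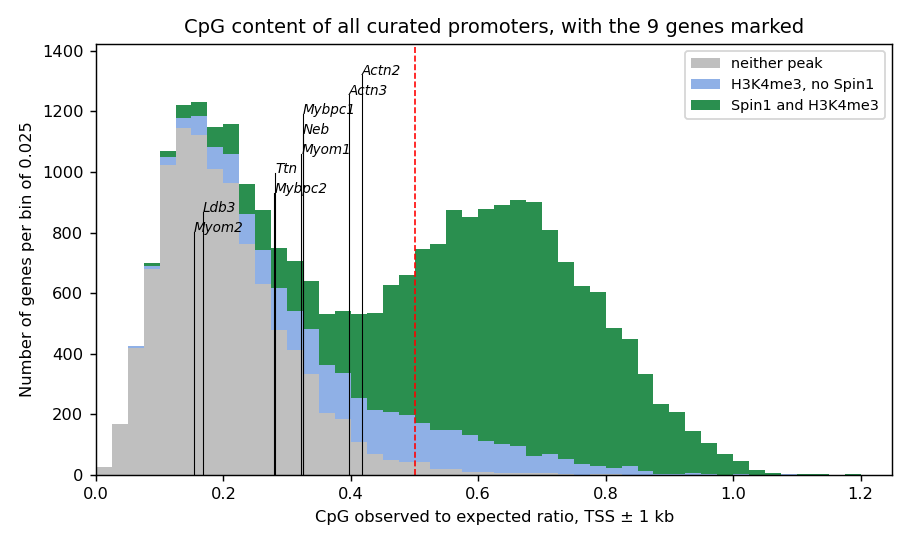
Number of genes (y axis, per bin of the ratio) by the CpG observed to expected ratio of TSS±1 kb (x axis), stacked by the peaks at the promoter, with the 9 genes marked by black lines. The 21 genes with Spin1 and no H3K4me3 are not drawn. All 9 genes lie left of the red threshold of 0.5, between 0.15 and 0.42.

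Among the Z-disc genes, Ldb3 and Actn3 had strong Spin1 peaks and Actn2 had weak ones. Ldb3 carried a Spin1 peak of 2320 bp (chr14:34586851-34589170, score 2444.99) that reached from -489 to 1830 bp relative to its outer start. Its H3K4me3 peak of 3372 bp (chr14:34585709-34589080, score 3100) covered 96.1% of the Spin1 peak. Both peaks spanned the 2 curated starts of the gene, which lie 74 bp apart, and extended mainly into intron 1.

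At Actn3, the alpha-actinin of fast fibers, a Spin1 peak of 3403 bp (chr19:4876449-4879851, score 3100) covered the whole TSS±1 kb window. The H3K4me3 peak was 4124 bp wide (chr19:4876554-4880677, score 3100). Both peaks were centered upstream of the Actn3 TSS. The start of Zdhhc24, on the other strand, lies 759 bp away and is covered by the same peaks. Zdhhc24 encodes a palmitoyltransferase family protein, and the peaks cannot be assigned to 1 of the 2 genes. A second H3K4me3 peak of 1450 bp (score 1150.44) followed in intron 1, after a short gap.

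Actn2, the alpha-actinin of cardiac muscle and of all skeletal fibers, had the widest single H3K4me3 peak at a promoter of the 9 genes, 4599 bp (chr13:12336828-12341426, score 3100). Beneath it lay 2 narrow Spin1 peaks, of 787 bp (chr13:12340060-12340846, score 239.31) over the TSS and of 737 bp (chr13:12339234-12339970, score 118.41) in intron 1. Their summed width was 0.331 of the H3K4me3 width, at percentile 5.13 of the 13246 genes with both peaks, whose median ratio was 0.649. The ratio was 0.688 at Ldb3, 0.752 at Ttn and 0.825 at Actn3, at percentiles 61.0, 76.8 and 89.7. The H3K4me3 width of Actn2 lay at percentile 71.6 of these genes and its Spin1 width at percentile 17.8. A weak peak in all cells and a strong one in few cells cannot be told apart.

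Of the giant genes, Ttn had both peaks and Neb had none at its curated start. At Ttn, a Spin1 peak of 3236 bp (chr2:76979881-76983116, score 3100) ran from -569 to 2666 bp relative to the TSS. It lay entirely within an H3K4me3 peak of 4304 bp (chr2:76979399-76983702, score 3100). Both were centered in intron 1. No other peak of either list fell in the Ttn body, which spans 279 kb and 313 exons of the RefSeq Select transcript.

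Neb was the exception to the promoter counts. The curated TSS (chr2:52338798) had no peak within 1 kb, but a Spin1 peak of 1972 bp (chr2:52333948-52335919, score 1204.38) began 2879 bp downstream, in intron 2. An H3K4me3 peak of 2851 bp (chr2:52333488-52336338, score 3100) covered all of it. All 28 predicted RefSeq transcripts of Neb start inside both peaks, 3037 bp downstream of the curated TSS, as do 2 GENCODE transcripts, at 3036 and 3664 bp. With predicted transcripts, or with GENCODE starts, Neb moved from neither peak to both. The call at Neb therefore depends on which start is taken, and which start the myoblasts used was not tested.

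The M-band genes had H3K4me3 at the promoter and no Spin1. At Myom1, an H3K4me3 peak of 2130 bp (chr17:71019138-71021267, score 2404.05) covered the TSS. Its width lay at percentile 69.5 of the 2961 genes with H3K4me3 and no Spin1, whose median was 1685 bp. Upstream, 5 predicted transcripts of Myom1 start at -16225 bp relative to the curated TSS. That start lies inside a Spin1 peak of 5637 bp (chr17:70998229-71003865, score 3100) and an H3K4me3 peak of 15431 bp (chr17:70988612-71004042, score 3100). The same peaks cover the promoter of Myl12a, a regulatory light chain gene of nonmuscle myosin, and the H3K4me3 peak also covers that of Myl12b. Counting predicted or GENCODE starts moved Myom1 to the class with both peaks, through this shared region.

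Myom2, the myomesin of fast and cardiac muscle, had H3K4me3 displaced into the gene. The peak of 4017 bp (chr8:15058194-15062210, score 1444.95) began 541 bp downstream of the TSS and was centered 2.55 kb downstream, in intron 1. Starts predicted by RefSeq at 1357 and 2504 bp lie inside it. Its width was at percentile 93.0 of genes with H3K4me3 and no Spin1. With a window of TSS±0.5 kb, Myom2 had neither peak.

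The C-protein genes differed in their H3K4me3. Mybpc1, the slow-type C-protein gene, had a peak of 3714 bp over the TSS (chr10:88602180-88605893, score 3100) and one of 723 bp upstream (score 96.17), with a summed width at percentile 94.9 of that class. Mybpc2, the fast-type gene, had only a peak of 962 bp (chr7:44524842-44525803, score 172.88) that ended 173 bp upstream of the TSS, at percentile 15.2. Mybpc1 also held a Spin1 peak of 677 bp (chr10:88603273-88603949, score 77.72) under its H3K4me3 peak, beginning 1203 bp downstream of the TSS. This peak lay just outside the promoter window and ranked at percentile 0.637 of Spin1 scores. With TSS±2 kb, Mybpc1 counted among the genes with both peaks, while Mybpc2 did not. Just inside the window were the H3K4me3 peak upstream of Mybpc1, with its edge 857 bp from the TSS, and the second Spin1 peak of Actn2, at 762 bp.

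**Figure D3:**
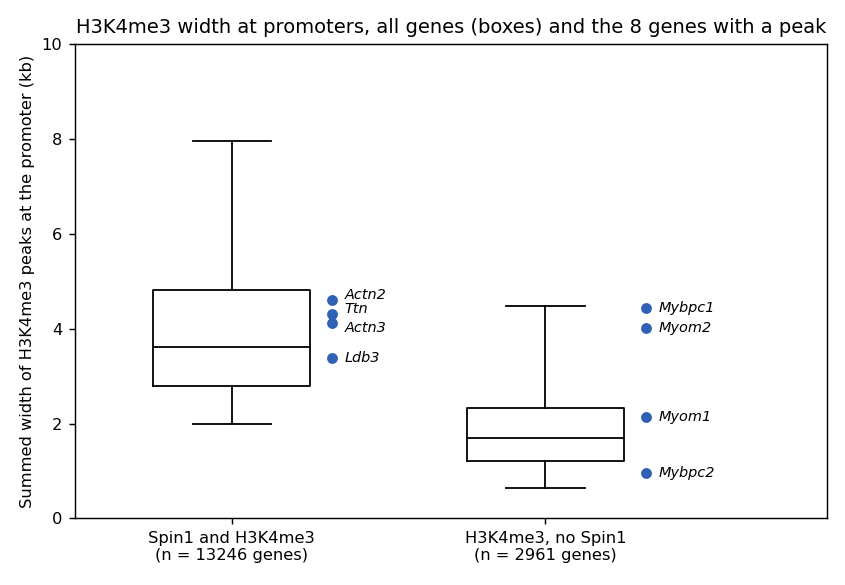
Summed width in kb of the H3K4me3 peaks at the promoter (y axis) for genes with Spin1 and H3K4me3 and for genes with H3K4me3 and no Spin1. Boxes show the median and quartiles of all genes, whiskers the 5th to 95th percentiles and points single genes. Mybpc1 and Myom2, at 4437 and 4017 bp, lie far above the median of their class of 1685 bp, and Mybpc2, at 962 bp, below it.

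In the gene bodies outside the promoters, 4 Spin1 and 16 H3K4me3 peaks were found. Spin1 peaks lay in 4 of 9 bodies (Neb, Myom1, Mybpc1 and Ldb3), beside 14.7% of the 11025 genes whose bodies are as long as those of the 9 genes. H3K4me3 peaks lay in 7 of 9 bodies, beside 33.0% of these genes. Bodies within that range were not matched further on length. Of the 4 Spin1 peaks, that of Neb holds the predicted starts described above. That of Mybpc1 lies under the H3K4me3 peak of its promoter. All 4 Spin1 peaks overlapped H3K4me3, whereas 12 of the 16 H3K4me3 peaks had no Spin1. The corresponding shares for body peaks of all genes were not computed. Of the 16 H3K4me3 peaks, 10 had scores under 200.

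The Spin1 peak with the highest score among these lay in Ldb3. In intron 10, 39.4 kb downstream of the TSS, a Spin1 peak of 1722 bp (chr14:34548343-34550064, score 1783.32) lay within an H3K4me3 peak of 2307 bp (chr14:34547971-34550277, score 3100). No RefSeq or GENCODE transcript starts within 1 kb of it. The Spin1 peak had a CpG ratio of 0.60 and 58.9% GC, where the Ldb3 promoter had 0.17 and 54.6%. In all, the Ldb3 body held 5 H3K4me3 peaks outside the promoter, a number reached by 2.33% of genes with bodies of that length range. The others were in introns 1, 5 and 8, with scores from 62.93 to 631.11, and had no Spin1. In Myom1, a second pair of peaks lay in intron 24, 83.3 kb into the gene, with a Spin1 score of 249.25 and an H3K4me3 score of 126.05.

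The 300 bases at the center of the Spin1 peak in Ldb3 intron 10 are printed in the direction of the gene because of their CpG content.
Ldb3 intron 10, chr14:34549053-34549352, minus strand: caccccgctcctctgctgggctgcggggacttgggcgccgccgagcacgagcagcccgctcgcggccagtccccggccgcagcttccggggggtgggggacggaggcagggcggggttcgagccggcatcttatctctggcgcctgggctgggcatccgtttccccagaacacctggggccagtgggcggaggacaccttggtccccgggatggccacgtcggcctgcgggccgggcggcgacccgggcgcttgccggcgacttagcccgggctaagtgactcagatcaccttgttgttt

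This window held none of the 3 motifs, and no letter is therefore in capitals. For the other Spin1 peaks in the gene bodies, the central window held 1 MEF2 box at Neb and 1 at Myom1. The window of the Mybpc1 body peak held none of the motifs. Of the flank peaks described below, the one upstream of Myom2 held 2 E-boxes in this window. Those upstream of Myom1 and downstream of Mybpc2 held none. Among the centers of all 17106 Spin1 peaks, 16.8% of such windows held the E-box CAGCTG, 1.88% a MEF2 box and 1.06% a CArG box.

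In the flanks, Spin1 peaks mostly belonged to other genes. Of 20 Spin1 peaks within 50 kb, 16 lay at the promoter of another curated gene, and of 29 H3K4me3 peaks 17 did. Downstream of Ttn these were the promoters of Fkbp7 and Plekha3, and downstream of Ldb3 that of Bmpr1a, a BMP receptor. Around Mybpc2 they were Josd2, Emc10, Fam71e1, Pold1 and Nr1h2, and around Actn3 Rbm14, Ccs, Ctsf and Dpp3. Mtr lay downstream of Actn2 and Chpt1 downstream of Mybpc1. No peak of either list lay in the flanks of Neb. How often peaks in the flanks of other genes lie at promoters was not computed.

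The other 4 Spin1 flank peaks were at no curated promoter of another gene, and 3 of them are described. The one upstream of Myom1 (score 314.46) lay within Myl12a. The one upstream of Myom2 (chr8:15027261-15028715, score 839.63) lay within Kbtbd11, had a CpG ratio of 0.98 and 70.0% GC, and a GENCODE transcript of Kbtbd11 starts there. The Kbtbd11 promoter itself had H3K4me3 and no Spin1. The one downstream of Mybpc2 (chr7:44473053-44475115, score 1411.08) lay in an H3K4me3 peak of 10731 bp, at a GENCODE start of the noncoding gene 5430431A17Rik. Of all 29 Spin1 peaks at the promoters, bodies and flanks, 28 overlapped H3K4me3, whereas 25 of the 54 H3K4me3 peaks overlapped Spin1. The same shares over the full peak lists were not computed, so these counts are not shown to be particular to these loci. At the promoters of all genes, 13246 of the 13267 with Spin1 also had H3K4me3, and 81.7% of the 16207 with H3K4me3 had Spin1.

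**Figure D4:**
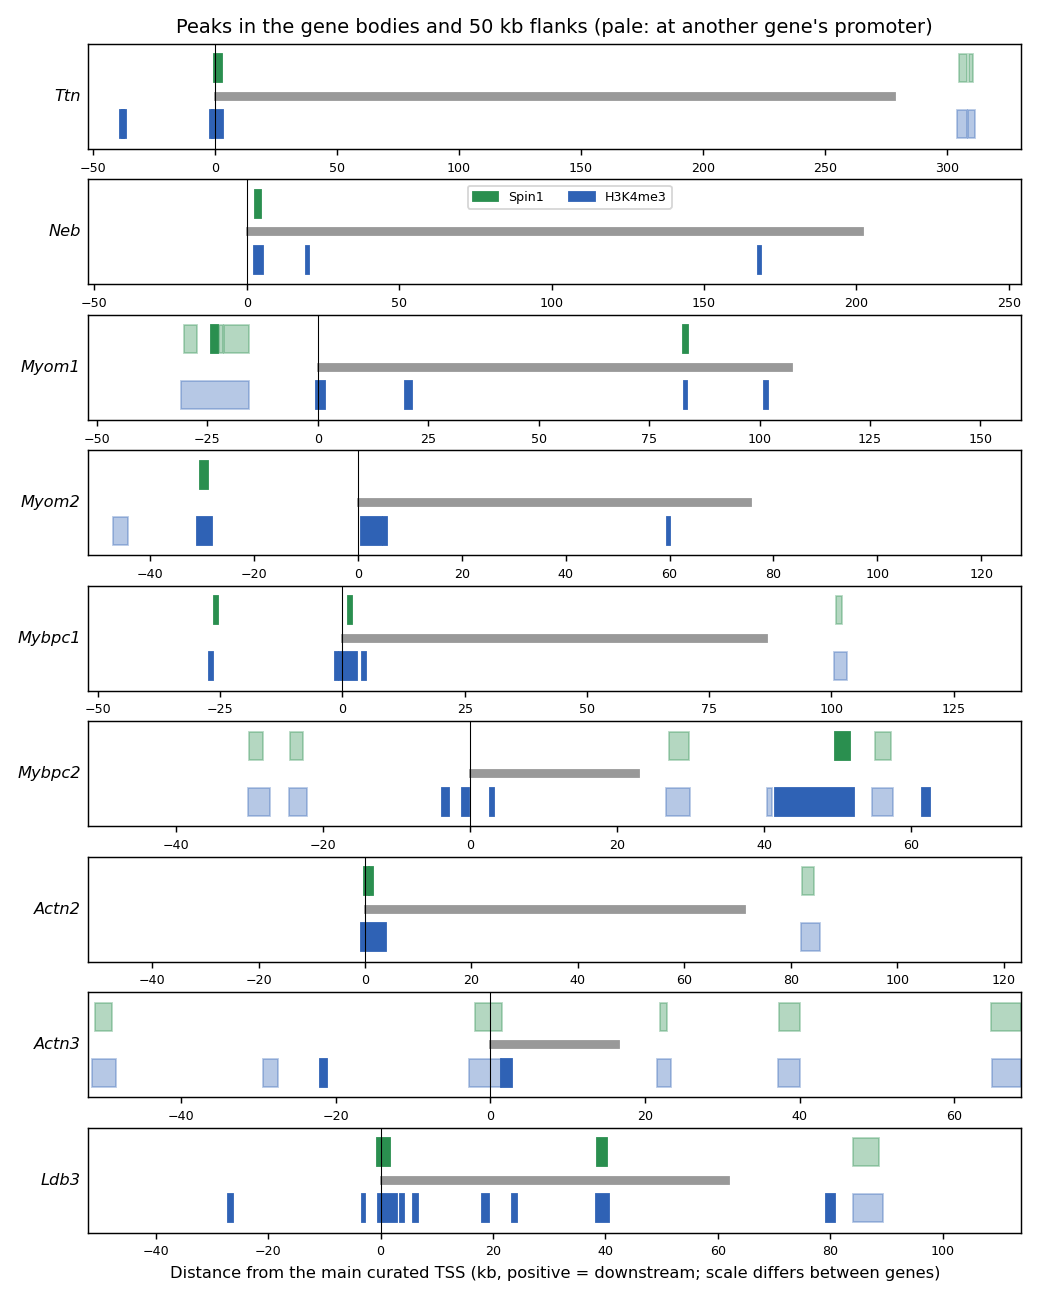
Peaks along each gene body (grey bar) and its 50 kb flanks, by distance from the main curated TSS in kb (x axis, a scale per gene). Spin1 is drawn above the bar and H3K4me3 below, and pale boxes lie at the promoter of another gene; very narrow peaks are widened to be visible. Ttn has no peak in its 279 kb body other than those at the start, and Ldb3 has 5 blue boxes and 1 green box in its body outside the promoter.

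The relatives of these genes outside the group were compared by family. The nonmuscle alpha-actinin genes Actn1 and Actn4 had both peaks, with Spin1 peaks of 5325 and 4837 bp, each with a score of 3100. The PDZ and LIM genes Pdlim3, Pdlim5 and Pdlim7 had both, with Spin1 scores of 3100, 2729.16 and 3100. Myom3, the third myomesin, had both, with a Spin1 peak of 1613 bp and a score of 648.51, unlike Myom1 and Myom2. Nebl, encoding the nebulin relative nebulette, had Spin1 (1207 bp, score 342.19) and H3K4me3 (2213 bp, score 3100). Both peaks of Nebl lay at a curated start other than that of its RefSeq Select transcript. In the C-protein family, Mybph had both, with a Spin1 score of 717.17, whereas the cardiac gene Mybpc3 and Mybphl had neither.

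Among 41 other genes of the Z-disc, M-band, C-protein family and filament assembly, 28 had both peaks, 7 had H3K4me3 only and 6 had neither. The 7 were Csrp3, Lmod1, Myoz2, Nrap, Smpx, Tcap and Xirp2. The 6 were Mybpc3, Mybphl, Myot, Myoz1, Myoz3 and Tmod4. Of 6 markers of differentiated muscle, Acta1 and Tnnt3 had both peaks, and Ckm, Myh1, Myh3 and Myh8 had H3K4me3 only.

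**Figure D5:**
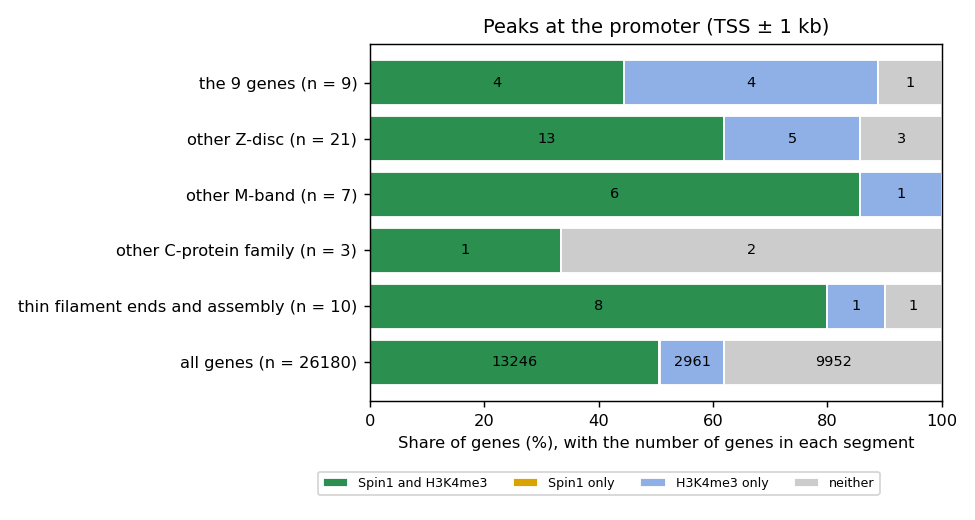
Share of genes in percent (x axis) by the peaks at TSS±1 kb, for the 9 genes, 4 lists of other sarcomere genes and all genes, with the number of genes in each segment. H3K4me3 without Spin1 holds 4 of the 9 genes and 2961 of 26180 genes in all.

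For each gene with a promoter peak, the most similar of the 41 genes was found by the distance over 6 shares, namely the covered parts of the promoter, body and flanks in the 2 libraries. A distance of 0 would mean equal shares. Myom2 was nearest to Xirp2 (0.0589), Actn3 to Capzb (0.0814), Ttn to Trim55 (0.0866) and Ldb3 to Trim54 (0.132). Myom1 and Mybpc1 were nearest to Lmod1 (0.133 and 0.161), Actn2 to Tmod1 (0.156) and Mybpc2 to Csrp3 (0.204). Neb, which had no promoter peak and so lay outside this rule, was nearest to Nebl (0.0336), from the start of the RefSeq Select transcript, where neither gene had a peak. The covered promoter enters the distance, so a shared promoter class is no separate observation.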

How the data were processed

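ChIP-seq libraries of Spin1 and H3K4me3 came from primary myoblasts. Read pairs were aligned by the authors to mm10 (bowtie 2), who then called peaks for each library with MACS 1.4.2 against the input, and left out peaks above a set false discovery rate. The deposited values are peak positions and a score, which MACS derives from the p-value and which is larger for a smaller p-value. Filtering, depth and duplicates enter the score, and weak or narrow peaks can be missed.

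Positions were counted from 1 on GRCm38 and compared with curated RefSeq transcripts by an overlap of 1 bp, using Python 3.11.15, pandas 2.3.3, pysam 0.24.0 and samtools 1.23.1. GENCODE M21 starts were added after seeing the data. The overlap functions were tested on simulated data. Named were the 9 genes, owners of promoters holding peaks of these loci, their relatives and, for each gene with a promoter peak, the most similar of 41 sarcomere genes. Genes and lists were chosen with earlier results of these data known. Alternatives were other windows, starts, score limits and flanks. A relative and a peak are not reported here. No test was made, since each antibody had 1 library.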

Additional observations from a re-analysis of the deposited data

How the results depend on the processing

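No paired analysis was possible because each antibody had 1 library. Of 81 recomputed counts, 62 stayed within 1.5 times the reported one and 19 did not, and the cause was not tested for those that moved. Genes with H3K4me3 at the promoter fell from 8 to 4, and genes with both peaks from 4 to 1, when the peak center had to lie in the window. Genes with neither peak, 1 in the report, numbered 2 with TSS±0.5 kb and with 1 kb upstream to 0.1 kb downstream, 3 with the upper 50% of scores and with peak centers, and 0 with predicted transcripts and, added after seeing the data, with GENCODE starts. With the upper 50% of scores, body peaks numbered 1 for Spin1 and 2 for H3K4me3, flank peaks 11 and 18, and Spin1 peaks overlapping H3K4me3 15. With scores of at least 100, H3K4me3 body peaks numbered 9. Flanks of 25 kb held 10 Spin1 and 15 H3K4me3 peaks, and flanks of 100 kb 33 and 59. CpG-rich promoters numbered 3 in the window of 300 bases. All counts over all genes stayed within 1.5 times. Depth is unknown, so a missing peak says only that none was called, and widths and scores carry no error.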
